A study of Mus musculus with 4 samples.

Results

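Invariant natural killer T (iNKT) cells of the mouse thymus whose T cell receptor (TCR) beta chain used the variable segment Trbv1 were compared with those that used a Trbv13 segment. A cell's segment was the Trbv gene with the most unique molecular identifiers (UMIs, each standing for 1 captured RNA molecule), with at least 2 UMIs and no tie. Of 16320 deposited barcodes, 1430 were Trbv1 cells and 9178 were Trbv13 cells, made up of 1648 with Trbv13-1, 6676 with Trbv13-2 and 854 with Trbv13-3. Another 2068 cells with Trbv29 served as a further comparison. The cells were thus chosen by their Trbv UMI counts, and genes of the TCR loci entered no gene-wise test. Thymocytes positive for CD3 and for a CD1d reagent loaded with PBS57 had been sorted from mice labelled by strain only (BALB/c or B6, with no allele, agent or age given), in 2 libraries per strain. Wherever 4 values are given in a row, the first pair is from BALB/c 1 and BALB/c 2 and the second pair from B6 1 and B6 2. The labels do not say whether animals were pooled, so p-values cover these 4 libraries only. In comparisons of segments they measure how the difference within a library varies between libraries.

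iNKT cells carry a nearly fixed TCR alpha chain, built from Trav11 and Traj18, which recognises lipids held by the antigen-presenting molecule CD1d. The beta chain varies, but mouse iNKT cells draw it mainly from Trbv13, Trbv29 and Trbv1. In the thymus they mature into subsets that make interferon gamma (iNKT1), interleukin 4 (iNKT2) or interleukin 17 (iNKT17), from an early stage called iNKT0.

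The main coding exons of the segments are shown because the choice of cells rests on telling their reads apart. All lie on the plus strand of chromosome 6 in GRCm38, with 2 coding exons each in the GENCODE annotation. The exon printed is the last, at chr6:40891591-40891885 for Trbv1, chr6:41116178-41116468 for Trbv13-1, chr6:41121539-41121832 for Trbv13-2 and chr6:41130292-41130585 for Trbv13-3. The sequences run 5′ to 3′, and capitals mark the 33 bases of Trbv13-1 and the 24 of Trbv13-3 that differ from Trbv13-2 or have no partner there in a pairwise alignment.
Trbv1: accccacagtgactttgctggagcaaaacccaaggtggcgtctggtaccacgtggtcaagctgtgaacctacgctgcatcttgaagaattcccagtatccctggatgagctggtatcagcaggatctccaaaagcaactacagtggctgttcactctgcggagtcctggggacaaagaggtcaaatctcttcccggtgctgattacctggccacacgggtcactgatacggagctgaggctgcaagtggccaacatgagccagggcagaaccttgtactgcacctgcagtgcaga
Trbv13-1: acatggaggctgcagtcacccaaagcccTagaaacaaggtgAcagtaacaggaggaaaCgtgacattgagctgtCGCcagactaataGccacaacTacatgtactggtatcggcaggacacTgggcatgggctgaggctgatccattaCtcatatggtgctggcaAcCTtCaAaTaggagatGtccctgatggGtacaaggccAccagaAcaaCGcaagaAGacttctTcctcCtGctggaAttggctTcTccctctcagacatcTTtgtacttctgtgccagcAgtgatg
Trbv13-2: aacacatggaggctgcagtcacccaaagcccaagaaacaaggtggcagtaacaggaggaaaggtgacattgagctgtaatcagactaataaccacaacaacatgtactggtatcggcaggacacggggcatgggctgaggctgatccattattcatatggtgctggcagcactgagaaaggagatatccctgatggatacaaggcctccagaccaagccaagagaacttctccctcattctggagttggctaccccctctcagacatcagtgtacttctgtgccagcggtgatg
Trbv13-3: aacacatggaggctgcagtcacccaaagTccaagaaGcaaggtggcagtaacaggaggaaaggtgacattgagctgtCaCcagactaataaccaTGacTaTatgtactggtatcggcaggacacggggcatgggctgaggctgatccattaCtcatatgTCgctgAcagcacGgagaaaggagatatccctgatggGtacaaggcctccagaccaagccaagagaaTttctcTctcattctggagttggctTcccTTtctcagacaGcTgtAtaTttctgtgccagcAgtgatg
Over both coding exons, Trbv1 matched Trbv13-1, Trbv13-2 and Trbv13-3 at 63.3%, 58.8% and 62.1% of aligned bases. The Trbv13 segments matched each other at 85.9% to 90.6%. Trbv13-1 began 224122 bases after the end of Trbv1.

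Trbv1 cells made up 10.3% of callable cells in BALB/c 1 (exact 95% binomial interval 8.87 to 11.9%), 15.4% in BALB/c 2 (13.7 to 17.2%), 11.0% in B6 1 (9.66 to 12.5%) and 9.65% in B6 2 (9.02 to 10.3%). BALB/c 2 stood above the other libraries. The mean share was 12.8% ± 3.59 (SD, n = 2) in BALB/c and 10.3% ± 0.957 (SD, n = 2) in B6, with a 2-sided exact permutation p of 0.667; 2 libraries against 2 cannot go below 0.33. Without BALB/c 2 the strain difference was -0.0266 percentage points. The cells numbered 168, 251, 217 and 794, and Trbv13 cells numbered 1098, 1039, 1332 and 5709. Because the rule used these UMIs, the depth of the leading segment is a description: its median per cell was 27, 29, 20 and 19 UMIs in Trbv1 cells and 12, 11, 10 and 10 in Trbv13 cells. Just inside the limit, 33 Trbv1 and 417 Trbv13 cells had exactly 2 UMIs, and just outside it 45 and 300 cells had a single leading UMI.

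**Figure D1:**
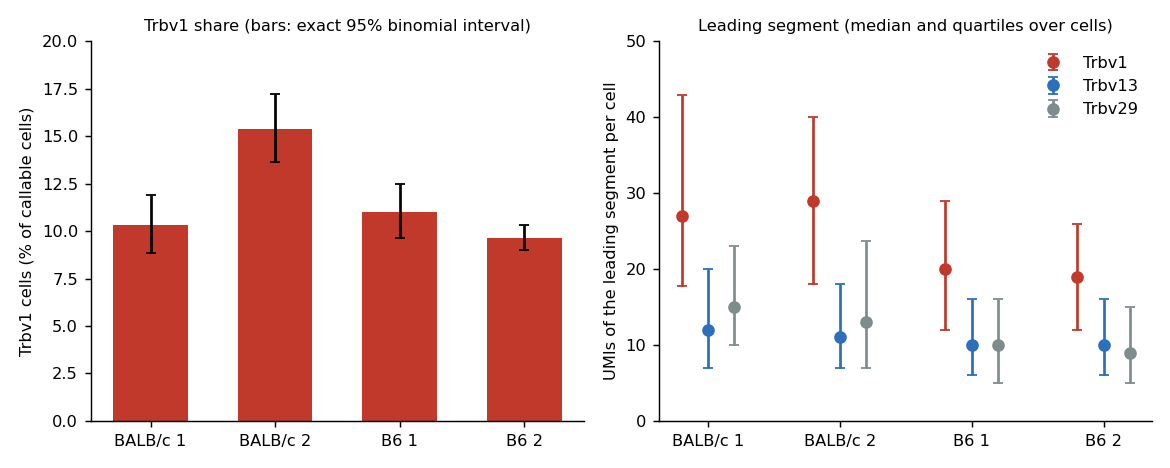
Left, Trbv1 cells as a percentage of callable cells in each library, with exact 95% binomial intervals that cover counting error only. Right, UMIs of the leading segment per cell (points are medians, lines run from the lower to the upper quartile over cells) for Trbv1, Trbv13 and Trbv29 cells; the Trbv1 median was 27, 29, 20 and 19 against 12, 11, 10 and 10 for Trbv13.

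The 4 libraries held 149233827 UMIs in all, from 20406245 to 82904358 each, and B6 2 was the largest. After filtering, 14781 cells were left and 13463 had a callable segment. The summed Trbv1 cells held 1966351 to 7319328 UMIs per library, and the Trbv13 cells 12272095 to 52462029. In all, 107 barcodes occurred in more than 1 library, 13 of them on Trbv1 cells. A Trbv13 UMI was found in 6.55%, 3.59%, 12.9% and 23.4% of Trbv1 cells. In Trbv29 cells, which should lack it too, the share was 9.59%, 7.58%, 9.15% and 20.9%. The Trbv1 shares were below these in both BALB/c libraries and above them in both B6 libraries, and no expression was read from them. B6 2 was also the only library whose file header names Cell Ranger 7.1.0 rather than 6.0.0.

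Trbv1 and Trbv13 cells differed in RNA content and in alpha chain segments by less than the spread between libraries. The median Trbv1 cell held 11303, 12228, 7437 and 7463.5 UMIs, against 12069.5, 9933, 7520.5 and 7409 for Trbv13. The log2 ratio of the medians averaged 0.050 ± 0.173 (SD over 4 libraries, exact permutation p = 0.875). Traj18, the joining segment that defines the invariant chain, gave 98.9%, 97.9%, 98.2% and 48.8% of Traj UMIs in Trbv1 cells and 99.1%, 97.2%, 98.2% and 53.7% in Trbv13 cells. Both groups were near the top in the 3 libraries with the older header and low in B6 2. The difference was -1.08 ± 2.60 percentage points (exact permutation p = 0.75), and 0.201 without B6 2. Trav11 gave 8.05%, 12.8%, 21.8% and 8.56% of Trav UMIs in Trbv1 cells and 10.3%, 10.2%, 18.3% and 8.47% in Trbv13 cells. Most Trav UMIs were thus counted on other Trav genes in both groups, so this share is a weak readout of the invariant chain. It differed by 0.986 ± 2.62 percentage points (exact permutation p = 0.375).

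Trbc1, 1 of the 2 constant genes of the beta chain, gave more of their UMIs in Trbv1 cells in every library. Trbc1 took 28.0%, 31.4%, 27.8% and 39.9% of Trbc UMIs in Trbv1 cells, and 25.3%, 25.8%, 25.4% and 33.3% in Trbv13 cells. It was higher in Trbv1 cells in 4 of 4 libraries, by 4.29 ± 2.10 percentage points (SD). The exact permutation p of 0.13 is the smallest that 4 libraries allow. Trbc1 and Trbc2 are near-identical, so reads can be split between them in counting. Against Trbv13-3 cells alone the difference was 2.74 percentage points (exact permutation p = 0.5).

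Subset make-up was compared next, in clusters built without TCR genes and named from marker lists. Trbv1 cells were spread over the same subsets as Trbv13 cells. iNKT1-like cells made up 20.8%, 29.9%, 63.6% and 61.6% of Trbv1 cells, against 18.9%, 39.0%, 69.7% and 63.4% of Trbv13 cells. The share was lower in 3 of 4 libraries, with a mean difference of -3.80 ± 4.83 percentage points (exact permutation p = 0.375). It was -2.33 under the first naming rule, replaced after its results were seen, which puts an unnamed cluster of 1248 cells in this class, and -7.63 against Trbv13-3 cells alone. BALB/c iNKT1-like cells came mostly from cluster 11 and those of B6 from clusters 2, 3, 5 and 6. iNKT2-like cells made up 45.8%, 54.6%, 15.2% and 14.0% of Trbv1 cells and 51.1%, 38.4%, 11.6% and 16.2% of Trbv13 cells. The libraries did not share a direction, with a difference of 3.08 ± 9.47 percentage points (exact permutation p = 0.75) that was -1.29 without BALB/c 2.

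iNKT17-like cells made up 17.3%, 5.18%, 4.15% and 2.02% of Trbv1 cells and 20.7%, 13.4%, 3.53% and 2.21% of Trbv13 cells. BALB/c 2 had the widest gap, a difference of -8.20 percentage points, and B6 1 went the other way. The mean difference was -2.80 ± 4.001 percentage points (exact permutation p = 0.375). It was 0.303 against Trbv13-3 cells alone and -1.53 with cells classed by marker score. iNKT0-like cells made up 7.74%, 3.19%, 2.30% and 2.27% of Trbv1 cells and 2.37%, 3.18%, 1.95% and 1.23% of Trbv13 cells. They were more frequent among Trbv1 cells in 4 of 4 libraries, by 1.69 ± 2.49 percentage points, with an exact permutation p of 0.13, the smallest possible. BALB/c 1 had the widest gap, from 13 such Trbv1 cells, and without it the mean difference was 0.468. Against Trbv13-3 cells alone it was 0.553, and with other clusterings tried after seeing the data it was as low as 0.978. Proliferating cells differed by -0.183 ± 0.549 and interferon-responding cells by 0.899 ± 1.58 percentage points (exact permutation p = 0.625 and 0.5). A cluster of 148 cells led by cell-cycle genes such as Cenpa and Ccnb2 stayed unnamed and is not in the proliferating share. Clusters left unnamed held 2.38%, 1.20%, 8.76% and 10.8% of Trbv1 cells and 2.46%, 1.64%, 5.48% and 8.79% of Trbv13 cells.

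**Figure D2:**
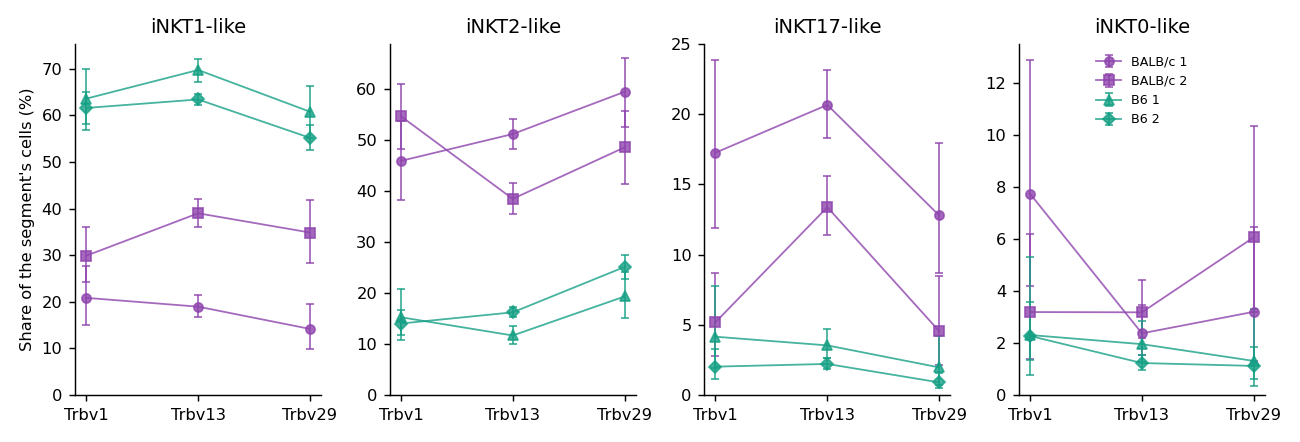
Share of each segment's cells (%) in the iNKT1-like, iNKT2-like, iNKT17-like and iNKT0-like classes, 1 line per library (purple BALB/c, green B6), with exact 95% binomial intervals for counting error. For iNKT1-like cells both BALB/c libraries lie below both B6 libraries (20.8% and 29.9% of Trbv1 cells in BALB/c, 63.6% and 61.6% in B6). The BALB/c libraries lie apart from each other, at 18.9% and 39.0% of Trbv13 cells. The iNKT17-like share of Trbv1 cells is above that of Trbv29 cells in all 4.

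Gene levels outside the TCR loci were then tested across the whole transcriptome. UMIs were summed per library and segment, and edgeR's quasi-likelihood test with library as a block was used; levels are CPM, counts scaled to a common total after TMM normalization. In such sums, fewer cells of a subset and less RNA per cell cannot be told apart. Of 11278 genes tested, 1 was called at an adjusted p under 0.05 (0.00887% of genes), the sodium pump regulator Fxyd7, which was lower in Trbv1 cells. Fxyd7 (chr7:31042513-31051467, GRCm38) stood at 2.36, 2.15, 0 and 0 CPM in Trbv1 cells. In Trbv13 cells it stood at 15.7, 9.43, 0.501 and 0.274 CPM. Both BALB/c libraries were well above both B6 libraries, and Trbv1 was lower within each BALB/c library. In B6 1 and B6 2 the direction rested on 6 and 15 Trbv13 UMIs against 0 Trbv1 UMIs, too few to read. The log2 fold change was -2.48 (SE 0.353, 95% interval -3.24 to -1.73, edgeR adjusted p = 0.0395).

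Few cells carried the Fxyd7 result. In BALB/c 1 its 235 UMIs came from 69 of 1098 Trbv13 cells, and 225 of them from 64 iNKT17-like cells. The Trbv1 cells there held 5 UMIs, in 3 iNKT17-like cells. In BALB/c 2, 45 Trbv13 cells held 120 UMIs and 1 Trbv1 cell held 7. B6 1 and B6 2 had 6 and 15 UMIs in Trbv13 cells and 0 in Trbv1 cells, which allows up to 3 UMIs in each. Within iNKT17-like cells alone, Fxyd7 before TMM scaling was 14.6 against 88.0 CPM in BALB/c 1 and 44.3 against 67.3 CPM in BALB/c 2 for Trbv1 against Trbv13, from 29 and 13 Trbv1 cells. The part of the lower iNKT17-like share in this difference was not tested. DESeq2 gave an adjusted p of 0.121 for the same fold change. By edgeR it was 0.15 without B6 1, 0.0656 with double-positive-like cells kept and 1.0 with no replicate block. A strict call, with at least 3 UMIs of the segment and no UMI from the other compared groups' segments, gave 0.142 by edgeR. Without either BALB/c library, or against Trbv13-3 cells alone, Fxyd7 did not pass the filter on low counts.

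**Figure D3:**
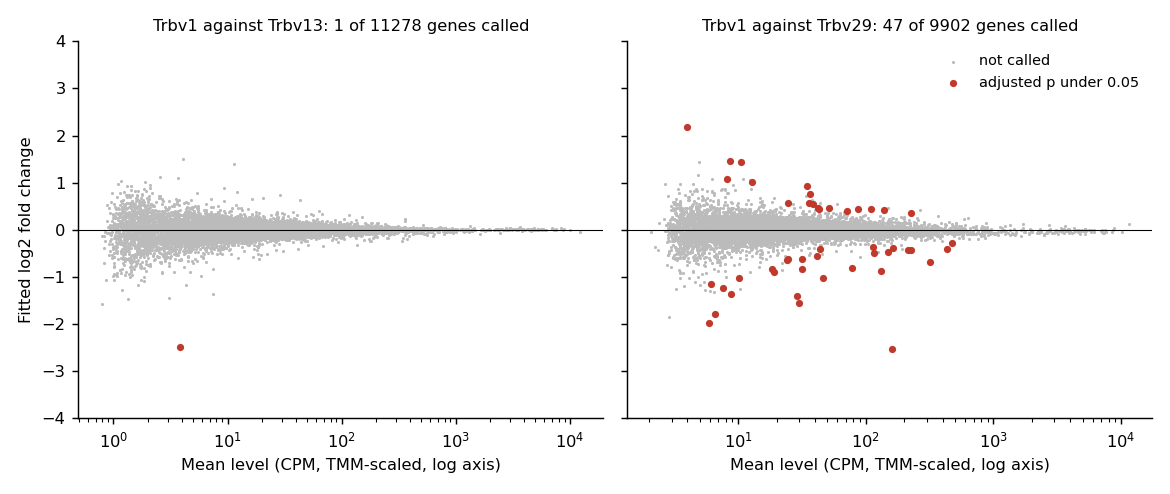
Fitted log2 fold change of Trbv1 cells against Trbv13 cells (left) and against Trbv29 cells (right), by mean level in CPM on a log axis; each point is 1 gene, red where the edgeR adjusted p is under 0.05. The single red point on the left is Fxyd7 at -2.48, and 47 genes are red on the right.

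No subset marker list had a called member between Trbv1 and Trbv13 cells. At an unadjusted p under 0.05, 204 genes were higher and 215 lower by edgeR, and 50 and 42 by DESeq2, which called 0. The median log2 fold change over all genes was 0.0. Among the 18 iNKT1 markers tested the median was -0.109, and 1 was above 0. Gzmb, which encodes the cytotoxic protease granzyme B, stood at 24.0, 75.5, 249 and 315 CPM in Trbv1 cells against 28.9, 91.0, 339 and 334 CPM in Trbv13 cells (log2 fold change -0.23, SE 0.057, edgeR adjusted p = 0.739). It was lower in 4 of 4 libraries, as 6.38% of all tested genes were. Il2rb, a chain of the interleukin 15 receptor, had a log2 fold change of -0.13 (SE 0.041), and the T-box factor Tbx21 one of -0.11 (95% interval -0.36 to 0.14). The iNKT1-like share, of a class named from these markers, was lower in 3 of those libraries. Its part in these values was not tested.

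The median over iNKT17 markers was -0.245 over 12 of 14 members tested, with 2 above 0. The kinase gene Blk stood at 76.8, 35.6, 13.04 and 15.7 CPM in Trbv1 cells and at 95.2, 61.4, 18.4 and 16.5 CPM in Trbv13 cells. Each library was lower for Trbv1, with a log2 fold change of -0.40 (SE 0.098, edgeR adjusted p = 0.739). Il23r, a chain of the interleukin 23 receptor, had -0.37 (SE 0.131). The chemokine receptor gene Ccr6 had -0.28 (95% interval -0.73 to 0.18). The iNKT17-like share of cells differed by -3.41, -8.20, 0.618 and -0.192 percentage points in the same libraries.

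The 11 iNKT2 markers had a median of -0.02, with 5 above 0. Il4 stood at 229, 259, 82.4 and 109.8 CPM in Trbv1 cells, and at 215, 221, 77.6 and 106 CPM in Trbv13 cells. It was higher in 4 of 4 libraries, with a log2 fold change of 0.12 (SE 0.045, edgeR adjusted p = 1.0); 5.92% of all genes were higher in every library. Il13 had a log2 fold change of -0.23 (95% interval -0.46 to 0.012). Zbtb16, which encodes PLZF, the factor that directs iNKT development, had 386, 390, 156 and 352 CPM against 422, 349, 169 and 343 CPM. Its log2 fold change of 0.0068 had a 95% interval of -0.085 to 0.098, and Gata3 one of -0.18 to 0.10. Among 11 iNKT0 markers the median was 0.019, and 7 were above 0. Myb had the lowest p of them: its level was 71.7, 61.1, 39.6 and 38.7 CPM against 66.9, 53.2, 26.6 and 29.1 CPM, with a log2 fold change of 0.30 (SE 0.074, edgeR adjusted p = 0.739). Tox had 0.15 (SE 0.042).

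Genes of TCR signalling had 0 calls. The 24 genes of the CD3 complex and its proximal kinases and adaptors had a median of -0.024, with 8 above 0 and 0 called. Cd3e stood at 1173, 1281, 1183 and 1141 CPM in Trbv1 cells and 1168, 1262, 1198 and 1172 CPM in Trbv13 cells. Its log2 fold change of -0.0083 had a 95% interval of -0.058 to 0.042. Cd247, the zeta chain, had 0.23 (95% interval 0.044 to 0.42): BALB/c 2 stood at 666 against 400.5 CPM, while the segments lay closer together in the other libraries. Of 21 early genes that TCR stimulation induces, 0 were called, with a median of -0.008. Egr1 had 0.17 (95% interval -0.042 to 0.38), Egr2 0.35 (0.055 to 0.65), Nr4a1 0.20 (-0.15 to 0.54) and Cd5, whose level tracks TCR signal strength, -0.15 (-0.27 to -0.032). The 9 SLAM receptor and adaptor genes had a median of -0.048 and 0 calls.

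Interferon-induced genes lay mostly above 0 in Trbv1 cells without passing the test. Of 20 tested, 15 had a positive log2 fold change, with a median of 0.069, and edgeR called none. Over all genes 5660 of 11278 were positive. Isg15, a ubiquitin-like protein gene, stood at 186, 165, 123 and 191 CPM in Trbv1 cells, against 133, 135, 113 and 168 CPM in Trbv13 cells. Each library was higher for Trbv1 (log2 fold change 0.27, SE 0.053, edgeR adjusted p = 0.313). Ifit1 had 0.31 (SE 0.077, edgeR adjusted p = 0.739). Ifi214, outside the list, had 0.33 (SE 0.062, edgeR adjusted p = 0.275). The interferon-responding share was higher in 3 of 4 libraries.

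The other lists had 0 calls as well. Of the lists for proliferation (20 genes, median -0.025), egress and homing (18, -0.003), cytokine receptors (19, 0.004), transcription factors (27, 0.007), survival (14, -0.018), dissociation and heat shock (19, -0.016) and glycolysis (15, 0.006), none had a called member by edgeR. The histone genes Hist1h1b and Hist1h3e had log2 fold changes of -0.35 and -0.42 (edgeR adjusted p = 0.313 each), lower in 4 of 4 libraries. Markers of other cells were sparse: 4 of 11 B cell, 3 of 11 myeloid, 2 of 9 gamma-delta T cell, 3 of 7 regulatory T cell and 4 of 6 double-positive thymocyte genes passed the filter, and 0 were called. The B cell gene Cd74 had -1.36 (edgeR adjusted p = 0.739), with 32.7 CPM in Trbv13 cells of B6 1 against 3.13 CPM in Trbv1 cells. Of 13 genes beside the Trb locus 1 could be tested, Ephb6, at -0.35 (95% interval -0.99 to 0.28).

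**Figure D4:**
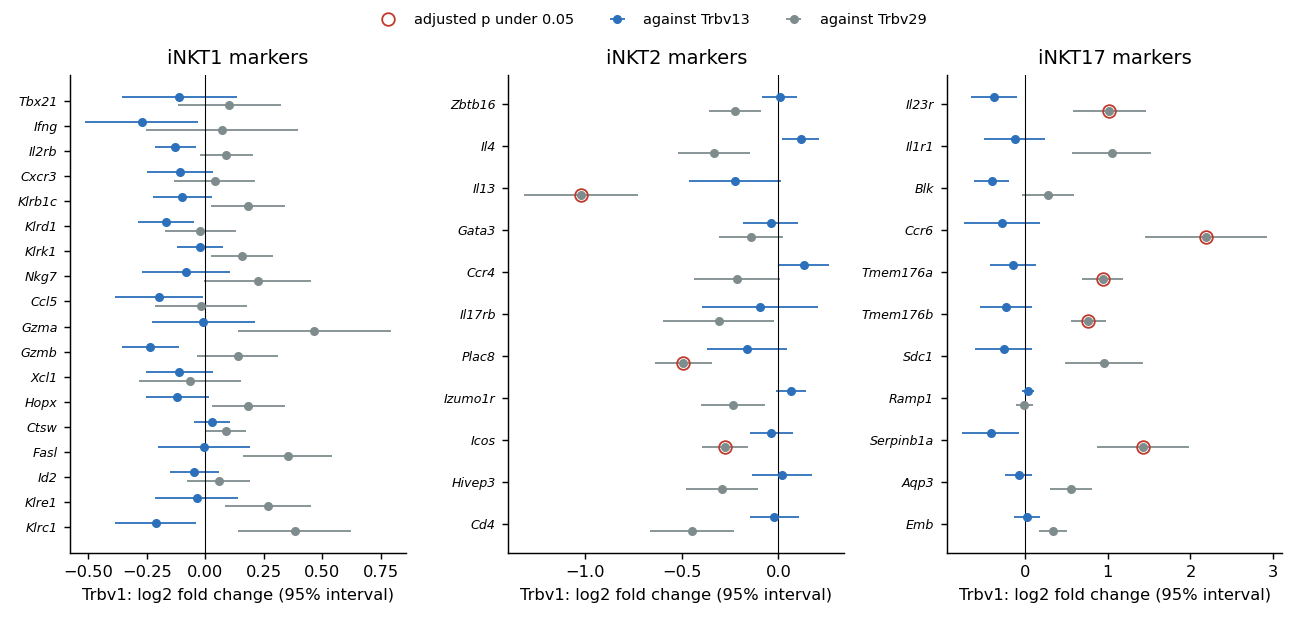
Log2 fold change of iNKT1, iNKT2 and iNKT17 markers in Trbv1 cells against Trbv13 cells (blue) and against Trbv29 cells (grey). The 95% intervals were derived from edgeR's fold change and F statistic. Red rings mark an edgeR adjusted p under 0.05, and 1 iNKT17 marker is not drawn. No blue point is ringed, while 5 iNKT17 and 3 iNKT2 markers are ringed against Trbv29.

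Against Trbv29 the same Trbv1 cells showed more differences, with higher iNKT17 and lower iNKT2 genes. This comparison shares the Trbv1 cells with the first one, so neither is a check of the other, and whether the 2 differ was not tested. Of 9902 genes tested by edgeR, 47 were called (0.475%): 18 were higher (0.182%) and 29 lower (0.293%) in Trbv1 cells. DESeq2 called 20, and edgeR with no replicate block called 0. Without B6 2 edgeR called 9, and without BALB/c 2 it called 175.

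Of 12 iNKT17 markers tested, 5 rose in Trbv1 cells against Trbv29 cells, with a list median of 0.852 beside 0.001 over all genes. Ccr6 stood at 7.53, 3.37, 10.9 and 3.51 CPM in Trbv1 cells, and at 3.01, 0.784, 2.24 and 0.428 CPM in Trbv29 cells. Trbv1 was higher in each library, as were 7.97% of all genes tested (log2 fold change 2.19, SE 0.347, edgeR adjusted p = 0.00606). The Trbv29 sums held 3108727, 2667660, 3196386 and 13371460 UMIs, so these Ccr6 levels rest on few UMIs. The Ccr6 call held in 6 of the 9 other settings that tested it. Tmem176a, which encodes a membrane protein, stood at 87.1, 39.5, 40.9 and 14.3 CPM against 42.4, 16.1, 26.8 and 7.98 CPM (log2 fold change 0.94, SE 0.115, edgeR adjusted p = 0.000944). Its neighbour Tmem176b rose by 0.77, the protease inhibitor gene Serpinb1a by 1.43 and Il23r by 1.02 on the log2 scale. Il17re, a chain of an interleukin 17 receptor, rose by 1.08 and the nuclear receptor gene Rora by 0.46, both outside the list. Of 11 other settings, the call held in 10 for Tmem176a and Tmem176b and in 8 for Serpinb1a. It held in 7 for Il23r and Rora, and in 4 for Il17re.

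The iNKT17-like share, of a class named from the same marker list, was higher in Trbv1 cells than in Trbv29 cells. It is therefore no separate check of those markers. It was 17.3%, 5.18%, 4.15% and 2.02% in Trbv1 cells against 12.8%, 4.55%, 1.96% and 0.892% in Trbv29 cells, higher in 4 of 4 libraries by 2.10 ± 1.71 percentage points (exact permutation p = 0.13, the smallest possible). The part of this share in the gene differences was not tested. The numbers behind it were small, with 9 and 16 Trbv1 cells in B6 1 and B6 2 against 6 and 12 Trbv29 cells.

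Of 11 iNKT2 markers, 3 fell against Trbv29, with a list median of -0.292. Il13, the type 2 cytokine gene, stood at 50.4, 46.8, 15.5 and 13.5 CPM in Trbv1 cells, against 79.2, 71.4, 58.1 and 34.2 CPM in Trbv29 cells (log2 fold change -1.02, SE 0.140, edgeR adjusted p = 0.0024). It was lower in each library, as were 8.82% of all genes. Plac8 fell by 0.49 and the costimulatory receptor gene Icos by 0.28 on the log2 scale. Outside the list, Csf1, which encodes a macrophage growth factor, stood at 26.4, 26.3, 7.25 and 6.24 CPM against 38.4, 80.4, 30.7 and 26.0 CPM (log2 fold change -1.55, SE 0.176, edgeR adjusted p = 0.000459). Klra1, an inhibitory receptor gene of the Ly49 family whose reads may be shared with its paralogues, stood at 39.1, 78.3, 135 and 115 CPM against 54.4, 131, 286 and 222 CPM (log2 fold change -0.88, SE 0.075, edgeR adjusted p = 1.53e-05). Cd5 fell by 0.43, Id3, an inhibitor of E proteins, by 0.41, Nrgn by 0.69 and Adh1 by 0.83. Txnip rose by 0.42, the adhesion receptor gene Cd226 by 0.44, Gpr183 by 0.40 and Ifi214 by 0.47. Of 11 other settings, the call held in 10 for Plac8, Csf1 and Klra1, and in 9 for Il13, Id3, Adh1 and Txnip. It held in 8 for Ifi214, in 7 for Cd5, Nrgn and Cd226, and in 6 for Icos and Gpr183. The iNKT2-like share differed by -5.65 ± 8.80 percentage points (exact permutation p = 0.375). Of 18 iNKT1 markers 0 were called, with a median of 0.12.

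Whether the Trbv1 to Trbv13 difference itself depended on strain was tested as an interaction. Of 11278 genes, 1 was called by edgeR (0.00887%), the chemokine gene Ccl5, which is an iNKT1 marker. Ccl5 stood at 196 and 371 CPM in Trbv1 cells of BALB/c 1 and BALB/c 2, against 314 and 506 CPM in Trbv13 cells. In B6 1 and B6 2 it stood at 585 and 260.4 CPM against 509.5 and 266 CPM. Both BALB/c libraries were lower for Trbv1, while the B6 libraries went opposite ways. Within iNKT1-like cells, which held 414 of the 415 Ccl5 UMIs of Trbv1 cells in BALB/c 1, the levels before TMM scaling were 1569, 2187, 1086 and 511.5 CPM for Trbv1 and 2981, 2196, 822 and 492 CPM for Trbv13. There BALB/c 1 was lower for Trbv1, and BALB/c 2 lay close to its Trbv13 value. The difference of log2 fold changes, BALB/c minus B6, was -0.62 (SE 0.087, edgeR adjusted p = 0.0364). The adjusted p was 0.0876 by DESeq2 and, by edgeR, 0.884 without B6 1 and 1.0 with no replicate block. The iNKT1-like share in the BALB/c libraries differed by 1.89 and -9.10 percentage points, and its part in the Ccl5 values was not tested.

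Within the iNKT1-like class, 2 of 9017 genes were called (0.0222%): Egr1 rose (0.0111% of genes) and Klra7 fell (0.0111%) in Trbv1 cells. Higher in every library were 5.57% of genes and lower in every library 6.33%. Egr1, an immediate early transcription factor gene, stood at 84.4, 23.0, 69.9 and 71.6 CPM in Trbv1 cells, against 67.4, 28.0, 44.9 and 40.9 CPM in Trbv13 cells. BALB/c 2 went the other way. The log2 fold change was 0.67 (SE 0.102, 95% interval 0.47 to 0.88, edgeR adjusted p = 0.000186). The counts were thin, with 22, 12, 68 and 269 UMIs in 5, 9, 17 and 64 Trbv1 cells. Of 15 early TCR-induced genes tested in the class, Egr1 was the 1 call, and the list median was 0.072. Egr1 also entered the clustering, which placed cells rich in it in an iNKT0-like cluster. Without B6 2 its log2 fold change was 0.41 (edgeR adjusted p = 0.999), with cells classed by marker score it was 0.34 (edgeR adjusted p = 1.0), and the adjusted p was 1.0 with DESeq2 and with no replicate block.

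Klra7 (chr6:130218605-130233322, GRCm38), an inhibitory receptor gene of the Ly49 family, stood at 76.7, 181, 58.6 and 33.2 CPM in iNKT1-like Trbv1 cells. In iNKT1-like Trbv13 cells it stood at 166, 253, 70.1 and 46.4 CPM, so each library was lower for Trbv1. The log2 fold change was -0.50 (SE 0.091, 95% interval -0.68 to -0.31, edgeR adjusted p = 0.00612). It came from 20, 94, 57 and 125 UMIs in Trbv1 cells. Against Trbv13-3 cells alone it was -0.032, and the adjusted p was 1.0 with DESeq2 and with no replicate block, 0.128 without BALB/c 2, 0.0896 without B6 2, 0.151 with the strict segment call and 0.196 with another clustering seed tried after seeing the data. The call held in 11 of 18 other settings. Ly49 genes are similar in sequence, so reads can be split between them; the paralogue Klra9 had -0.22 (edgeR adjusted p = 0.376). The class came from cluster 11 in BALB/c and clusters 2, 3, 5 and 6 in B6. The next genes, Ifitm3 at 0.45 and Lars2 at 0.35, had edgeR adjusted p-values of 0.05002 and 0.063. Before TMM scaling, Lars2 stood at 4219, 2152, 2254 and 1480 CPM in these Trbv1 cells. In the Trbv13 cells it stood at 1835, 2388, 1669 and 1450 CPM, so BALB/c 2 went the other way. In BALB/c 1, 1 of the 35 Trbv1 cells held 322 of the 1113 Lars2 UMIs.

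**Figure D5:**
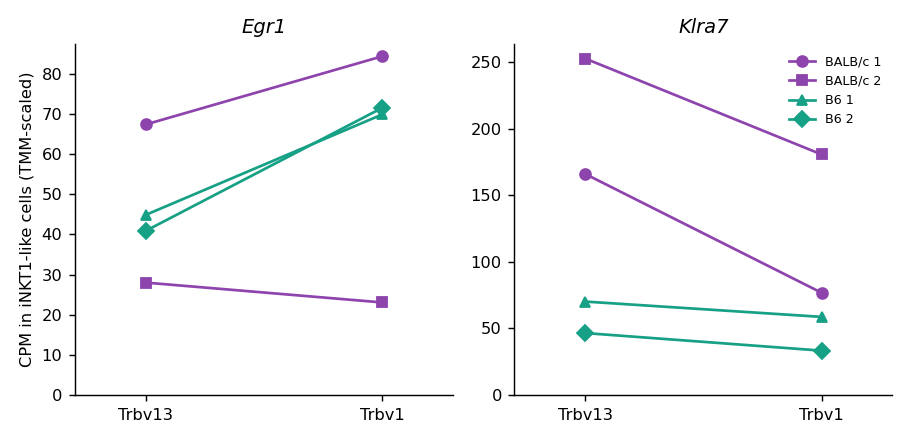
Level in CPM of Egr1 and Klra7 in iNKT1-like cells, Trbv13 on the left and Trbv1 on the right of each panel, 1 line per library. Egr1 is higher in Trbv1 cells in 3 of 4 libraries, with BALB/c 2 the exception at 23.0 against 28.0 CPM; Klra7 is lower in all 4.

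Within the iNKT2-like class edgeR called 0 of 9241 genes (0.0%), with 180 higher and 198 lower at an unadjusted p under 0.05, and DESeq2 also called 0, with 33 and 32. Cd5 had the lowest p and stood at 249, 195, 166 and 222 CPM in Trbv1 cells, against 279.8, 310.3, 272 and 261 CPM in Trbv13 cells. It was lower in 4 of 4 libraries (log2 fold change -0.42, SE 0.081, edgeR adjusted p = 0.543). Ifi214 had 0.46 (edgeR adjusted p = 0.566) and was higher in each library. Of all genes 6.17% were higher and 6.36% lower in every library.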

How the data were processed

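The authors deposited raw UMI counts per gene and barcode for 4 sorted libraries (Chromium 5' kit v2, per the labels' protocols). File headers name Cell Ranger 6.0.0 in 3 libraries and 7.1.0 in B6 2; the submitters' processing notes name 7.1.0 and mm10. Whether introns were counted is not stated in these sources. Cells had at least 500 genes, at least 1000 UMIs and at most 10% mitochondrial UMIs. Another 986 cells with 2 or more UMIs of Cd8a and Cd8b1 and at least 1 of Rag1, Dntt, Arpp21 or Aqp11 were dropped. Of the rest, 94.1%, 94.4%, 90.7% and 90.0% per library had a callable segment.

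UMI counts were summed per library and segment (within classes, from 20 cells up) and tested with edgeR 4.0.16 (TMM, filterByExpr, Benjamini-Hochberg at 0.05), in a script tested on simulated data. Library was the block, since both segments of a pair come from 1 library. Shares were tested by swapping segments within libraries (exact, 2-sided, smallest p 0.13). Intervals and the limit of 3 counts behind a 0 cover counting error only.

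Classes came from Leiden clustering without TCR genes (scanpy 1.11.5, 2000 variable genes, 30 components, 15 neighbours, resolution 1.0), named from marker lists. Clusters stayed unnamed where markers of another class led their top 10 genes, or where their median UMI count was under 0.5 of their sample's with no own marker among those genes. Clustering and naming were rebuilt several times with class shares and calls in view. The UMI limit was raised from a lower one, and the rule on another class's markers was added, after results were seen; the first naming rule puts a cluster of 1248 cells in iNKT1 and one of 148 in iNKT2, and is kept as an alternative. Doublets stayed in, and an alternative left out cells of high Scrublet score.

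Named genes were a set of developmental and TCR genes, up to 4 of lowest p per list, called genes other than predicted ones, and up to 10 per direction at 20 CPM or more with 1 direction in every library. The values of 1 list member are not reported here. The members and lists were chosen with earlier results of these data known. Alternatives were RLE factors, DESeq2 1.42.0, no filter, no replicate block, a strict segment call, other clusterings and leaving out each library. Trbv13-2 and Trbv13-3 were also taken alone, while Trbv13-1 was not. The strict call took cells with at least 3 UMIs of the segment and no UMI from the other compared groups' segments. In B6 2 it left 558 of 794 Trbv1 cells.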

Additional observations from a re-analysis of the deposited data

Results flagged for a closer look

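The Ccl5 difference between Trbv1 and Trbv13 cells differed between the strains by a test of the interaction itself: the log2 fold change in BALB/c minus that in B6 was -0.62 (SE 0.087, edgeR adjusted p = 0.0364, the 1 call of 11278 genes). Ccl5 in Trbv1 against Trbv13 cells was 196 against 314 and 371 against 506 CPM in the BALB/c libraries, and 585 against 509.5 and 260.4 against 266 CPM in the B6 libraries. In BALB/c 1 the Trbv1 value rested on 415 UMIs in 19 cells, of which 1 held 100. Over the other settings the value ran from -1.17 to -0.51. The adjusted p was above 0.05 without B6 1 (0.884), with DESeq2 (0.0876), against Trbv13-3 alone (0.144), with double-positive-like cells kept (0.141) and with no replicate block (1.0).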

How the results depend on the processing

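The calls between Trbv1 and Trbv13 numbered 0 with DESeq2, with no replicate block, with a strict segment call and with double-positive-like cells kept, 2 against Trbv13-2 alone, 67 with no low-count filter, and 0 to 15 leaving out each library (15 without BALB/c 2, 2 without B6 2, 0 without BALB/c 1 or B6 1). Against Trbv13-3 alone there was 1 call, higher in Trbv1 cells and not Fxyd7. Against Trbv29 the count was 20 with DESeq2, 211 with no filter, 0 with no replicate block and 9 to 175 leaving out each library. For the interaction it was 0 with DESeq2, no replicate block or double-positive-like cells kept, 2 with the strict call, 8 with Trbv13-3 alone, 54 with no filter and 0 to 211 leaving out each library (211 without BALB/c 1, 29 without BALB/c 2, 13 without B6 2, 0 without B6 1). Within iNKT1-like cells it was 0 with DESeq2 or no replicate block, 8 with no filter, 5 with the strict call, 6 without high doublet scores, 5 with Trbv13-2 alone and 2 to 6 leaving out each library (6 without BALB/c 1, 4 without BALB/c 2). With Trbv13-3 alone it was 3, all higher in Trbv1 cells. Settings added after seeing the data gave 5 (genes scaled over all cells) and 4 (Leiden seed 1). Within iNKT2-like cells it was 48 with no filter, 3 with the strict call, 4 with Trbv13-3 alone (3 libraries), 1 with the added Leiden seed 2 and 0 to 7 leaving out each library (7 without BALB/c 2, 4 without B6 2). No replicate block drops the pairing of segments from 1 library; no other cause was tested.

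Differences that changed sign were the iNKT2-like share (-1.29 without BALB/c 2), the iNKT17-like share (0.303 with Trbv13-3 alone), the strain difference in Trbv1 share (-0.0266 without BALB/c 2), UMIs per cell (-0.033 without BALB/c 2), genes per cell (-0.022 without BALB/c 2, -0.0081 with the strict call), the Trav11 share (-0.049 with the strict call) and the Traj18 share (0.201 without B6 2). Leaving out each library, the ranges of the differences were -5.69 to -2.03 (iNKT1-like), -1.29 to 5.85 (iNKT2-like), -3.93 to -0.995 (iNKT17-like), 0.468 to 2.25 (iNKT0-like), -0.0266 to 5.05 (strain), 3.53 to 4.95 (Trbc1), 0.132 to 2.08 (Trav11), -1.69 to 0.201 (Traj18), -0.033 to 0.098 (UMIs) and -0.022 to 0.033 (genes). None of the called genes named here changed sign in the settings where they were tested; the 3 predicted genes called against Trbv29 were not followed. Over all settings, 93 genes named without a call against Trbv13 gave 45 sign changes. The 168 Trbv1 cells of BALB/c 1 and the 9 to 29 iNKT17-like Trbv1 cells per library limit the precision.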

Other observations

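Trbv12-2, a segment beside Trbv13-2, gave 30.7, 30.8, 22.4 and 27.8 UMIs per 100 Trbv13 cells, and 4.17, 0.398, 2.30 and 6.93 per 100 Trbv1 cells. Trbv29 cells had 4.11, 5.05, 3.27 and 4.76. Since cells led by Trbv12-2 belong to none of the groups, these values are a description. The joining segments of the beta chain had 349 UMIs in Trbv1 cells, 2206 in Trbv13 cells and 621 in Trbv29 cells of B6 2, and 0 UMIs in the other 3 libraries, whose headers name Cell Ranger 6.0.0.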
